A study of Rattus norvegicus with 4 samples.

Results

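The matrix metalloproteinases (MMPs), their tissue inhibitors (TIMPs), the ADAMTS proteases and the ADAMTS-like proteins were examined in HSC-T6, an immortalised line of rat hepatic stellate cells. Members were chosen by gene symbol from the annotated count table, which gave 49 of 32883 genes: 22 Mmp, 4 Timp, 19 Adamts and 4 Adamtsl genes. RNA sequencing compared 2 libraries of untreated HSC-T6 cells with 2 libraries of HSC-T6 cells given the treatment labelled GRK1, which the series title spells out as ginsenoside RK1, a ginseng saponin (Rk1 here), and n = 2 per group holds throughout. Both groups are the same line, and the sources used here state no dose, duration or vehicle. They also do not say whether replicate libraries are separate cultures, so the p-values rest on a spread between libraries that may be technical.

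Library totals lay between 18008586 and 20430930 counts, and all 4 libraries carried stellate and fibroblast transcripts. Of 12 stellate markers, 8 were tested, and 4 fell and 0 rose with Rk1 at an adjusted p under 0.05 in edgeR. Of all tested genes 10.5% fell and 11.5% rose. The summed level of the 12 markers was 18849 and 17801 CPM untreated (CPM being counts scaled by library totals). With Rk1 it was 12022 and 11935 CPM, and in both groups most of it was Col1a1 and Col3a1. Lrat and Reln, which mark quiescent stellate cells, were at 0 counts in every library, and at this depth a count of 0 allows a level of up to 0.167 CPM. No hepatocyte or neutrophil marker passed 4 counts in a library (7 and 6 genes listed), and of 7 macrophage markers Cd14 was at 916 and 765 counts untreated and 975 and 982 with Rk1 and Clec4f reached 5, while Adgre1, Cd163, Marco and C1qa were at 0. Among 5 endothelial markers Kdr, Stab2 and Lyve1 were at 0 and Tek reached 16 counts, and among 5 cholangiocyte markers Epcam, Krt7, Krt19 and Cftr stayed at 4 counts or fewer while Sox9, which stellate cells can also express, fell from 147 and 161 to 44 and 43 counts. The part of these marker changes in the results was not tested. A bulk library does not tell fewer expressing cells from less RNA per cell.

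MMPs are zinc endopeptidases that cleave collagens and other matrix proteins and are made as inactive precursors. TIMPs bind their active sites, and in fibrotic liver activated stellate cells are known as a main source of TIMP1, which is held to protect scar matrix from breakdown. ADAMTS proteases carry thrombospondin repeats that anchor them in the matrix, where they cut large proteoglycans, trim procollagens or act on microfibrils, while ADAMTS-like proteins keep the anchoring part and have no protease domain.

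Of the 49 members, 24 were expressed, meaning 10 or more counts in at least 2 libraries, and the other 25 were not. Among those 25, 13 genes had 0 counts in all 4 libraries and the largest count of any was 13, for Mmp13 in untreated replicate 2. They included the soluble collagenases (Mmp1, Mmp1b and Mmp8 at 0, Mmp13 at 7 and 13 counts untreated and 8 and 6 with Rk1) and the stromelysins Mmp3, at 2 to 4 counts, and Mmp10, at 0 or 1. The gelatinase Mmp9, common in leukocytes, had 1 and 4 counts untreated and 1 and 1 with Rk1. Timp3, the TIMP that binds to matrix, had 1 and 1 against 0 and 0 counts, and Timp4 had at most 1. Also at 0 were Mmp7, Mmp12, Mmp17, Mmp21, Mmp27, Mmp28, Adamts8, Adamts18, Adamts19 and Adamtsl2. Mmp20, Adamts3, Adamts13 and Adamts16 had at most 1 count in a library, Adamts20 at most 3 and Adamts17 at most 5. At this depth 3 counts correspond to 0.148 to 0.167 CPM. In the edgeR fit without a filter, the 12 of these genes with a count and Mmp24 could be tested, and 0 of the 13 were called (0 at an unadjusted p under 0.05, lowest adjusted p = 0.52), so a difference was not detectable at these counts. Reads of Mmp28 could be divided with a listed near-copy described as matrix metalloproteinase-28-like, which had 7 counts in untreated replicate 1 and 0 in the others.

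A block of the genes without expression stands side by side. In Rnor_6.0 the interval of chromosome 8 from 5522739 to 5901049 holds 10 listed genes, all of them members, in the order Mmp13, Mmp12, Mmp1b, Mmp3, Mmp1, Mmp10, Mmp8, Mmp27, Mmp20 and Mmp7, and 0 of the 10 were expressed in either group. The bases upstream of their starts were searched in the promoter table of RefSeq on assembly GRCr8, a later build than the one the counts use, where 38 of the 49 members matched by symbol. The search took 250 bases before each annotated start and looked for the AP-1 heptamer TGAGTCA on either strand, a sequence known from stromelysin and collagenase promoters, and for the TATA hexamer TATAAA on either strand, and these motifs do not overlap each other. The AP-1 heptamer was found in 6 of the 10 promoters of the cluster, 61 to 87 bases before the start, and each of those 6 also held a TATA hexamer nearer to the start. The AP-1 heptamer was found in 0 of the 18 expressed members that have an entry and in 0 of 10 other members that were not expressed. The expressed members Mmp14, Mmp19, Mmp16, Mmp2, Adamts5 and Adamts15 have no entry. Of the MMPs, the 18 hold only Mmp11, Mmp15, Mmp23 and Mmp24. Of all 33469 promoters of the table, 4.05% held the AP-1 heptamer, and in sets of 18 and 10 genes a count of 0 is near that share. The TATA hexamer was found in 8, 3 and 2 of the cluster, the expressed and the other members, and in 12.9% of all. The stretch from 100 to 21 bases before the start is shown for the 6 cluster genes, with both motifs in capitals, because these genes share an arrangement of motifs and a position and none reached the expression threshold, with Mmp13 at 6 to 13 counts in a library, Mmp3 at 2 to 4 and the other 4 at 0 or 1.
Mmp13 (chr8:12782729-12782808, plus strand): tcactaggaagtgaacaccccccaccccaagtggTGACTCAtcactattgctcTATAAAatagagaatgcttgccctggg
Mmp12 (chr8:12866552-12866631, plus strand): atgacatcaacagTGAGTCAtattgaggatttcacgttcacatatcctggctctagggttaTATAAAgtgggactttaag
Mmp3 (chr8:12925181-12925260, plus strand): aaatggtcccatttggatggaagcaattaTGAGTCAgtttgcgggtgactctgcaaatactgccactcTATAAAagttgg
Mmp1 (chr8:12943353-12943432, plus strand): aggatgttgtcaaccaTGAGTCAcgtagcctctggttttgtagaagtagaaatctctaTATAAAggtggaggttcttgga
Mmp10 (chr8:12974607-12974686, plus strand): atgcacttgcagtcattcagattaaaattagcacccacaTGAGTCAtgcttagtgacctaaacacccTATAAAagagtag
Mmp7 (chr8:13132943-13133022, plus strand): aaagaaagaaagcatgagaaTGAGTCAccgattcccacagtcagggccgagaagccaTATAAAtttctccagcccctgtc

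The same stretch is shown for 3 of the expressed genes described below, the abundant inhibitor Timp1 and the proteases Adamts1 and Adamts9, beside those of the cluster. None of them holds the AP-1 heptamer in the bases searched, and Adamts1 holds a TATA hexamer 70 bases before its start. Just upstream of the stretch shown, Timp1 holds TGAGTAA, which has A where the heptamer has C. Variants of the heptamer were not searched in any promoter. A match is a description of the letters and no evidence of binding, and a missing match says only that these letters are not in this window.
Timp1 (chrX:3771143-3771222, minus strand): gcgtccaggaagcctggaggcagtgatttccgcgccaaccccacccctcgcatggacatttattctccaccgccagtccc
Adamts1 (chr11:38427405-38427484, minus strand): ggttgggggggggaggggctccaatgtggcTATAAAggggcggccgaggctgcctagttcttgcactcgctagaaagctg
Adamts9 (chr4:127019897-127019976, minus strand): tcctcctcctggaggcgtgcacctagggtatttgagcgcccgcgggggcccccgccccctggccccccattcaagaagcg

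**Figure D1:**
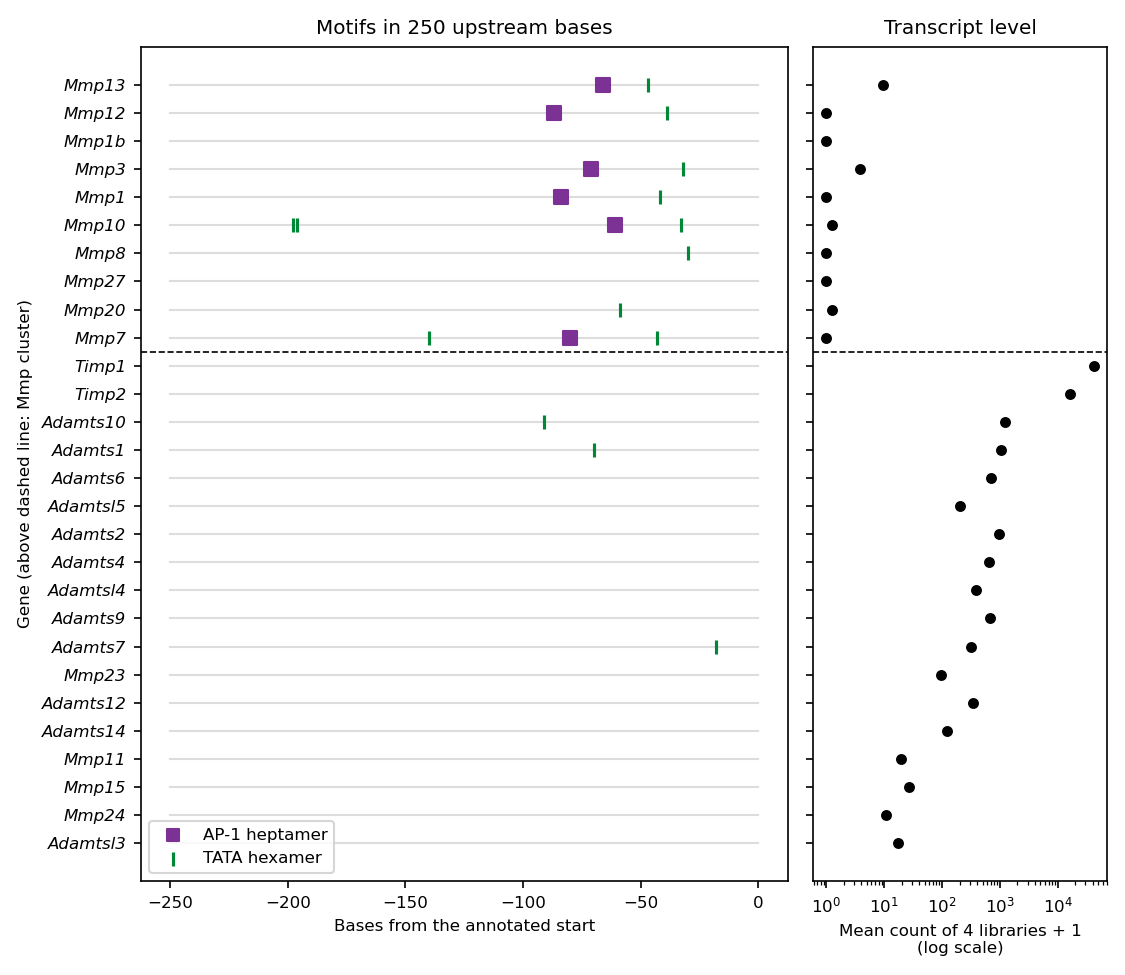
Left, positions of the AP-1 heptamer (squares) and the TATA hexamer (ticks) in the 250 bases before the annotated start, in bases, for the 10 genes of the Mmp cluster (above the dashed line) and the 18 expressed members with an entry; right, the mean count of the 4 libraries plus 1 on a log scale. The 6 genes with the AP-1 heptamer all lie in the cluster, whose mean counts are the lowest plotted.

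The expressed members covered a wide range of levels, compared here as CPM per kilobase of exon. Timp1 stood first with a mean of 2994 over the 4 libraries, followed by Timp2 at 517, the membrane-type protease Mmp14 at 136 and the secreted protease Mmp19 at 58.1. These 4 and Adamts10, at 16.2, held the same places in the means of both groups. Below them the order differed: untreated, Adamts1 at 16.6 and Mmp16 at 15.6 came before Adamts6 at 11.8 and Adamtsl5 at 10.3, and with Rk1, Mmp16 at 12.9, Adamtsl5 at 10.7 and Adamts6 at 10.6 came before Adamts1 at 8.61. The other 15 had means over the 4 libraries between 8.13 for Adamts2 and 0.115 for Adamtsl3. Timp1 alone made up 58.4% and 59.1% of all counts on members without treatment and 52.2% and 53.2% with Rk1. Mmp14 made up 60.9% to 65.7% of the summed MMP level per kilobase in the 4 libraries.

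**Figure D2:**
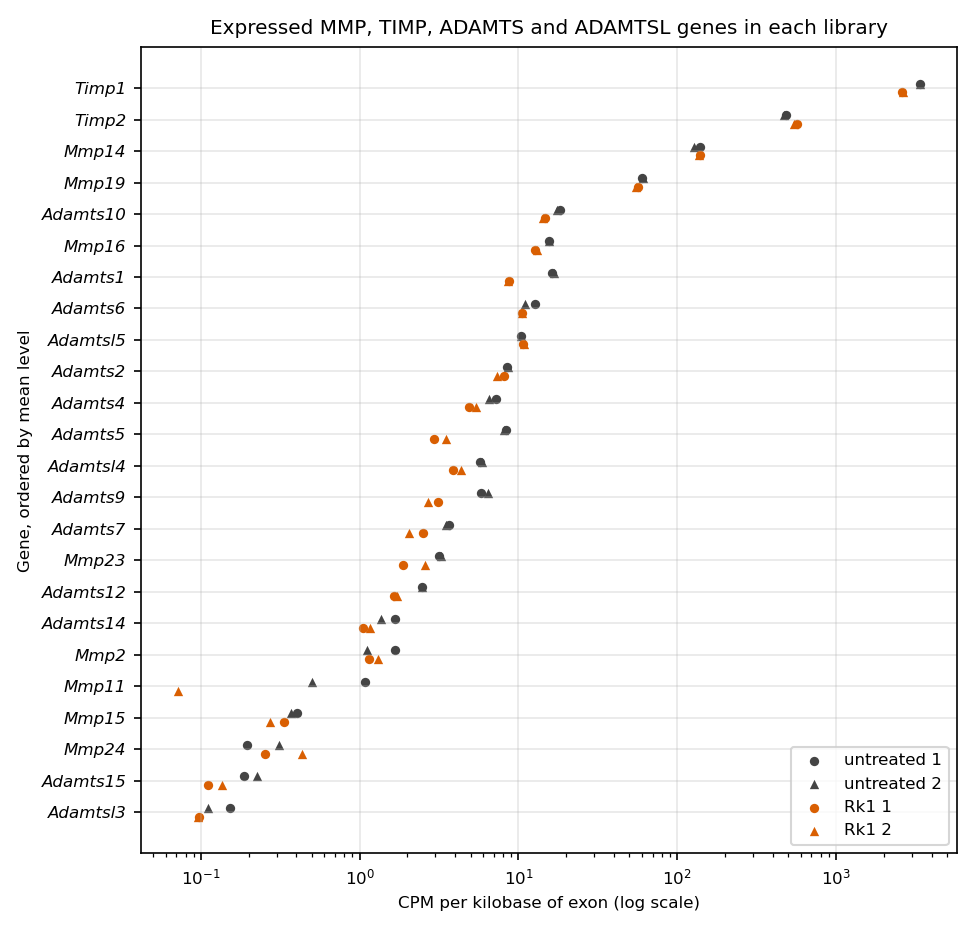
CPM per kilobase of exon (log scale) of the 24 expressed members in each library, untreated in grey and Rk1 in orange, with circles for replicate 1 and triangles for replicate 2; Mmp11 in Rk1 replicate 1, at 0 counts, is not drawn. The mean levels span from that of Timp1, at 2994, to that of Adamtsl3, at 0.115. The lowest single point is Mmp11 in Rk1 replicate 2, at 0.0717. The orange points of most Adamts genes lie left of the grey ones.

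Of the 24 expressed members 23 were abundant enough for edgeR's quasi-likelihood test, fitted on 12316 genes with Benjamini-Hochberg adjustment over all of them. At an adjusted p under 0.05, 11 of the 23 fell and 1 rose with Rk1, which is 47.8% and 4.35%, where 10.5% of all tested genes fell and 11.5% rose. The median log2 fold change was -0.42 over the tested members and 0.00 (0.0011) over all tested genes. Both Rk1 libraries lay below both untreated libraries in 19 of the 23, or 82.6%, against 30.9% of all tested genes, and above both in 2, against 32.1%. Mmp11 passed the filter on low counts only through the untreated libraries, where it is high, so a fall was favoured from the start. Leaving it out, which was decided after seeing the data, 10 of 22 fell, or 45.5%. Mmp24, expressed but not tested, had 7 and 10 counts untreated and 8 and 14 with Rk1. Of the 11 members that fell, 10 were also lower in every alternative fit at that threshold, the exception being Mmp16.

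Most of the tested ADAMTS proteases fell with Rk1. Of 11 tested, 7 fell and 0 rose, where 10.5% of all tested genes fell and 11.5% rose. All 11 had a negative log2 fold change, with a median of -0.55. In all 11 both Rk1 libraries lay below both untreated ones, as in 30.9% of all tested genes. The summed level of the 19 Adamts genes was 85.3 and 82.6 CPM per kilobase untreated and 58.3 and 57.4 with Rk1, a 1.45-fold difference between the means. Across 2 libraries against 2, an exact two-sided permutation test cannot go below p = 0.333, which is the value these groups gave.

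The proteases of large proteoglycans, sometimes called aggrecanases or hyalectanases, held the largest falls among the ADAMTS genes. Of 5 tested members 4 were lower, where 10.5% of all tested genes were, and the median was -0.95. Adamts5, the main aggrecan-cleaving enzyme of mouse cartilage, was at 26.6 and 25.9 CPM untreated and 9.30 and 11.1 CPM with Rk1. Both Rk1 libraries were below both untreated ones, and Adamts5 fell 2.57-fold (log2 fold change -1.36 ± 0.10 SE, adjusted p = 0.00022). Adamts9, which cleaves versican and aggrecan, was at 46.6 and 51.4 CPM untreated and 24.7 and 21.6 CPM with Rk1, with no overlap, and fell 2.12-fold (-1.08 ± 0.08, adjusted p = 0.00022). Adamts1, which cleaves versican, was at 72.0 and 74.0 CPM untreated and 38.1 and 37.6 CPM with Rk1. The libraries of a group differed far less than the groups did, and Adamts1 fell 1.93-fold (-0.95 ± 0.05, adjusted p = 4.7e-05). Adamts4, another aggrecanase, was at 40.8 and 36.8 CPM untreated and 27.5 and 30.7 CPM with Rk1 and fell 1.34-fold (-0.42 ± 0.08, adjusted p = 0.011). Adamts15 did not pass, with 23 and 25 counts untreated and 12 and 15 with Rk1 (-0.74, 95% interval -1.48 to -0.00 (-0.0042), adjusted p = 0.14).

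Adamts1 and Adamts5 are neighbours on the minus strand of chromosome 11 in Rnor_6.0, at 25342126 to 25350974 and 25410975 to 25456836, with 60001 bases between them and no other listed gene there. The nearest tested gene at lower coordinates, App (24425005 to 24641858), which encodes the amyloid precursor protein, rose by 0.36 on the log2 scale. App lies much farther from the pair than Adamts1 and Adamts5 do from each other. No tested gene at higher coordinates was examined, and how far a fall extends around the pair was not tested. App is no member and was singled out for its position. Of the other members of their class that fell, Adamts9 is found on the minus strand of chromosome 4 at 124660262 to 124858250 and Adamts4 on chromosome 13 at 89622632 to 89634419 (plus strand).

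Among the other ADAMTS proteases 3 of 4 tested genes fell, where 10.5% of all tested genes did. They fell by less than Adamts5, Adamts9 and Adamts1. Adamts7 and Adamts12, a related pair that cleaves cartilage oligomeric matrix protein, were at 20.6 and 19.7 CPM and at 21.4 and 21.2 CPM untreated. With Rk1 the values were 14.1 and 11.5 CPM for Adamts7, a 1.57-fold fall (-0.65 ± 0.12, adjusted p = 0.0074), and 14.2 and 14.9 CPM for Adamts12, a 1.46-fold fall (-0.55 ± 0.08, adjusted p = 0.0039). Adamts10, which acts on fibrillin microfibrils and is the most abundant Adamts gene per kilobase here, fell 1.24-fold from 74.1 and 71.3 to 59.6 and 57.7 CPM (-0.31 ± 0.05, adjusted p = 0.0047). Adamts6, its closest relative, was at 42.5 and 36.7 CPM untreated and 35.5 and 35.5 CPM with Rk1 and did not pass (-0.16, 95% interval -0.34 to 0.02, adjusted p = 0.19).

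The procollagen N-propeptidases, which remove the amino-terminal propeptide of fibrillar collagens, did not pass. Adamts2 was at 53.4 and 54.1 CPM untreated and 51.3 and 46.0 CPM with Rk1 (-0.14, 95% interval -0.29 to 0.00 (0.0027), adjusted p = 0.15). Adamts14 was at 8.23 and 6.71 CPM untreated and 5.18 and 5.71 CPM with Rk1 (-0.46, 95% interval -0.83 to -0.09, adjusted p = 0.078), and Adamts3 was not expressed. In Adamts2 and Adamts14 both Rk1 libraries lay below both untreated ones, as in 30.9% of all tested genes. The interval of Adamts2 reached positive values, up to 0.0027, while that of Adamts14 was wholly negative. Neither interval leaves out a fall. Of the ADAMTS-like genes, Adamtsl4, which binds fibrillin, fell 1.42-fold from 23.9 and 24.4 to 16.03 and 17.9 CPM (-0.51 ± 0.09, adjusted p = 0.0065). Adamtsl5 was at 10.8 and 10.9 CPM untreated and 11.2 and 11.4 CPM with Rk1 (0.05, 95% interval -0.18 to 0.29), and Adamtsl3 had 23 and 15 counts against 13 and 13 (adjusted p = 0.39). Neither passed.

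**Figure D3:**
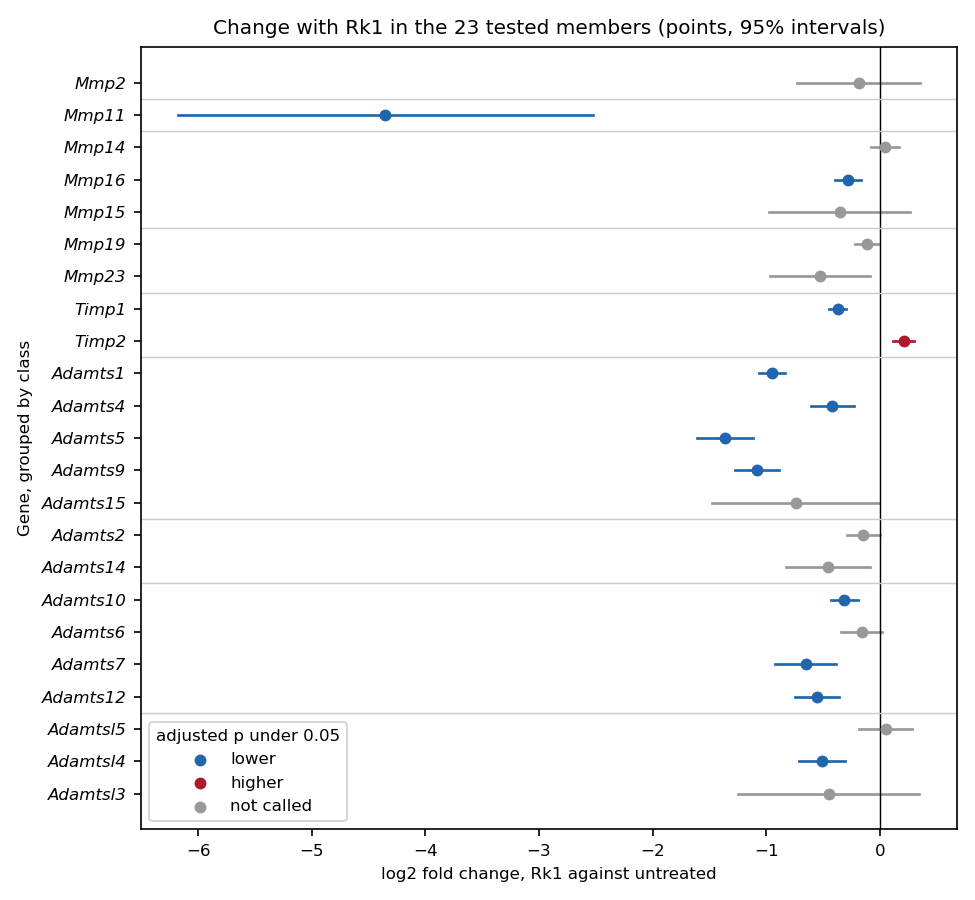
Log2 fold change of Rk1 against untreated cells with its 95% interval for the 23 tested members, grouped by class between grey lines; blue genes were lower, red higher and grey not called at an adjusted p under 0.05 in edgeR's quasi-likelihood test. All 11 tested Adamts genes lie left of 0, Timp2 is the one member called to the right, and Mmp11 has the widest interval.

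Of the MMPs, 2 of 7 tested genes fell and 0 rose. Mmp11 was tested only through its untreated libraries, and without it 1 of 6 fell, or 16.7%. Of all tested genes 10.5% fell, and in so few genes a count of 1 is near that share. Whether the share of the MMPs differs from that of the ADAMTS genes was not tested. The log2 fold change was negative in 6 of the 7 tested MMPs and positive in 1, with a median of -0.28. In 5 of the 7, Mmp11 among them, both Rk1 libraries lay below both untreated ones, as in 30.9% of all tested genes. Mmp14, the membrane protease that cleaves collagen and activates the Mmp2 precursor, was at 340 and 313 CPM untreated and 341 and 334 CPM with Rk1. The groups overlapped and Mmp14 did not pass (0.05, 95% interval -0.07 to 0.17, adjusted p = 0.56). The summed level of the 22 Mmp genes was 222 and 211 CPM per kilobase untreated and 213 and 210 with Rk1, which also overlapped (exact two-sided permutation p = 0.667). Mmp14 made up 60.9% to 65.7% of that sum. Mmp19, which is widely expressed in fibroblasts, was at 120 and 122 CPM untreated and 113 and 111 CPM with Rk1 (-0.11, 95% interval -0.21 to -0.01, adjusted p = 0.12).

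Mmp16, another membrane-type protease, fell 1.21-fold from 54.9 and 55.3 to 44.6 and 46.1 CPM (-0.28 ± 0.05, adjusted p = 0.0074), and without untreated replicate 2 its adjusted p was 0.051 at a like log2 fold change of -0.28. Mmp15, of the same class, had 33 and 27 counts untreated and 24 and 20 with Rk1 and did not pass (adjusted p = 0.38). Mmp2, the gelatinase usually prominent in activated stellate cells, was low in this line, with 104 and 62 counts untreated and 63 and 73 with Rk1. Both Rk1 libraries lay between the untreated ones on the CPM scale, and Mmp2 did not pass (-0.19, 95% interval -0.73 to 0.35, adjusted p = 0.61), with a value of 0.14 without untreated replicate 1. Mmp23 was at 5.91 and 6.10 CPM untreated and 3.51 and 4.83 CPM with Rk1 (-0.53, 95% interval -0.97 to -0.09, adjusted p = 0.088) and was lower without Rk1 replicate 2 (-0.77, adjusted p = 0.039).

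Mmp11, stromelysin-3, a protease that furin activates inside the cell, showed the largest fold difference of any member at a very low level. Its counts were 50 and 21 untreated and 0 and 3 with Rk1, and both Rk1 libraries were far below both untreated ones (log2 fold change -4.35 ± 0.78, adjusted p = 0.0079). Because it passed the filter only where it is high, that p is not read as support for a fall. The summed counts, 71 against 3, give a ratio of 22.3 after scaling, with an exact 95% counting interval of 7.33 to 111 that leaves out the spread between libraries. Against Rk1 replicate 1 alone, which was at 0, the untreated mean was at least 10.8-fold higher, with 3 counts as that library's floor. The ratio, its interval and this bound rest on the same selected counts. They describe those counts and are likewise not read as support for a fall. The fitted log2 fold change moved to -8.10 when Rk1 replicate 2 was left out and to -3.41 without Rk1 replicate 1. The gene lies on an unplaced scaffold of Rnor_6.0.

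The 2 expressed inhibitors moved in opposite directions. Timp1 (chromosome X at 1364786 to 1369384, minus strand) was at 2501 and 2498 CPM untreated and 1918 and 1946 CPM with Rk1, without overlap, and fell 1.29-fold (-0.37 ± 0.03, adjusted p = 0.00039). Timp2 (chromosome 10 at 107338465 to 107386072, minus strand), which besides inhibition takes part with Mmp14 in activating the Mmp2 precursor, was at 806 and 786 CPM untreated and 938 and 906 CPM with Rk1. Its Rk1 libraries were both above the untreated ones and it rose 1.16-fold (0.21 ± 0.04, adjusted p = 0.0093), but without untreated replicate 2 it was not called (0.19, adjusted p = 0.074). Per kilobase, Timp1 stood at 6.97 and 7.13 times the level of Timp2 untreated and at 4.59 and 4.82 times with Rk1. The summed TIMP level per kilobase was 17.4 and 18.3 times the summed MMP level untreated and 14.8 and 15.1 times with Rk1, and for both ratios the groups did not overlap (exact two-sided permutation p = 0.333, the smallest possible here). Syn1 overlaps Timp1 on the opposite strand with 21 to 44 counts in a library, and Cep295nl lies inside Timp2 on the same strand with 48 to 62, and with the strand setting unknown reads there could belong to either gene.

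**Figure D4:**
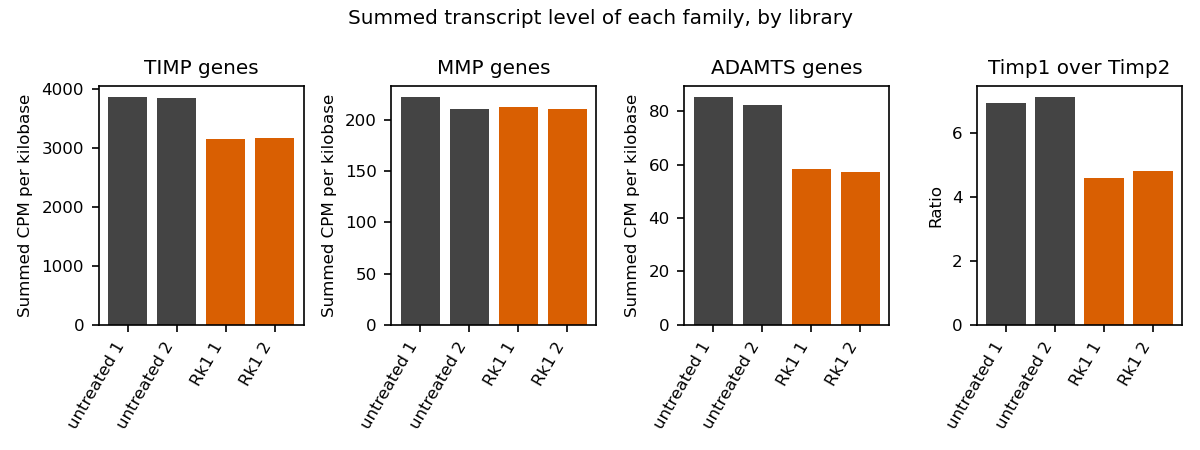
Summed CPM per kilobase of exon of the 4 Timp, 22 Mmp and 19 Adamts genes, and the ratio of Timp1 to Timp2 per kilobase, as one bar per library (untreated in grey, Rk1 in orange). The MMP sums overlap between the groups at 210 to 222, while the TIMP and ADAMTS sums and the ratio are lower in both Rk1 libraries.

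Lists of relatives and partners outside these families were read against the 11.5% of all tested genes that rose and the 10.5% that fell, and with so few genes a count of 1 is near those shares. Of 11 tested genes of the ADAM sheddases and astacins, 3 rose and 1 fell, with a median of 0.01. Adam15 rose from 92.2 ± 3.2 to 120 ± 3.8 CPM (mean ± SD, log2 fold change 0.38 ± 0.05 SE, adjusted p = 0.0022). Adam10, the sheddase of Notch and cadherins, and Adam9 rose by 0.19 ± 0.04 and 0.22 ± 0.05. Adam10 lost its call in each fit that left out a library (adjusted p = 0.056 to 0.096), and Adam9 lost it without untreated replicate 1, without untreated replicate 2 and without Rk1 replicate 1, where only 1 gene of the list rose. Tll1, an astacin that processes procollagen, fell by 0.86 ± 0.18 (adjusted p = 0.014) and was not called without any 1 of the latter 3 libraries or by DESeq2. Bmp1, the main procollagen C-proteinase, was at 98.7 ± 4.3 and 99.0 ± 0.11 CPM.

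Of 5 tested genes for other inhibitors, enhancers and clearance receptors, 2 rose and 1 fell, with a median of -0.14. Reck, a membrane-anchored inhibitor of several MMPs, rose from 80.6 ± 0.0052 to 100 ± 0.19 CPM (0.32 ± 0.04, adjusted p = 0.0027). Lrp1, the endocytic receptor that clears several of these proteases and TIMPs, rose by 0.21 ± 0.04 (adjusted p = 0.012, and 0.11 without untreated replicate 2). Pcolce, which enhances procollagen C-proteinases, fell by 0.20 ± 0.05 (adjusted p = 0.025), with 0 genes of the list lower when untreated replicate 1, Rk1 replicate 1 or Rk1 replicate 2 was left out. Mrc2, a collagen uptake receptor, did not pass (463 ± 15 and 421 ± 6.1 CPM, adjusted p = 0.060).

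Of 7 tested activators and proprotein convertases, 1 rose and 1 fell, with a median of 0.03. Bsg, also called EMMPRIN for its induction of MMPs in neighbouring cells, rose from 947 ± 9.2 to 1146 ± 30 CPM (0.27 ± 0.04, adjusted p = 0.0028). Plau, the urokinase-type plasminogen activator, fell by 0.46 ± 0.13 (adjusted p = 0.044) and lost its call in each of the 4 fits that leave out a library. Plat, the tissue-type activator, did not pass (70.4 ± 5.5 and 88.7 ± 20.6 CPM, adjusted p = 0.13) but was higher without Rk1 replicate 2 (0.55, adjusted p = 0.0029). Neither did Plaur, the urokinase receptor, pass (adjusted p = 0.40). Furin, the convertase that removes the propeptide of Mmp14, Mmp11 and the ADAMTS precursors, was at 138 ± 5.7 and 133 ± 6.7 CPM.

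Among 11 tested genes of the list fixed for ADAMTS substrates and other matrix proteins, 8 fell and 0 rose, and the median was -0.43. Only 5 of them fell in the fit without untreated replicate 1. They included Thbs1, thrombospondin-1 (-1.23 ± 0.08, adjusted p = 0.00011), Lum, the small proteoglycan lumican (-1.37 ± 0.13, adjusted p = 0.00057), and the collagens Col3a1 and Col1a1, whose fall in these libraries was known when the list was made. Vcan, the versican that Adamts1, Adamts4, Adamts5 and Adamts9 cleave, did not pass at 1151 ± 57 and 1238 ± 55 CPM (0.10, 95% interval -0.01 to 0.22, adjusted p = 0.18). Acan, the aggrecan gene, had 9 and 12 counts untreated and 5 and 4 with Rk1 and was not tested.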

How the data were processed

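Total RNA from 4 HSC-T6 libraries was made into cDNA libraries with a VAHTS kit, per the labels' protocols, and the submitters' processing notes name HISAT2 for the reads and HTSeq. Their versions, the strand setting and the treatment of multiply matching reads are not stated in those sources. The authors deposited raw counts per Ensembl gene with exon length, symbol and position in Rnor_6.0, per the file headers. Genes were filtered with filterByExpr (minimum count 10, minimum total 15), scaled by TMM and tested with edgeR 4.0.16 (quasi-likelihood F-test, two-sided, group only, 2 residual degrees of freedom, Benjamini-Hochberg over all 12316 genes). The SE is the log2 fold change divided by the square root of F, and 95% intervals use the moderated degrees of freedom. CPM use scaled totals, and CPM per kilobase divide by exon length. The 2 libraries of a group were no repeat deposits, as chi-square over degrees of freedom was 4.39 and 4.49. The steps were tested on simulated data. A planned search of protein sequences was not run. The members, classes and lists were chosen with earlier results of these data known. Every expressed member is named, and of each related list the 4 genes with the smallest adjusted p, beside others named for a count or a role after their values were seen. Alternatives were DESeq2 1.42.0, limma-voom (limma 3.58.1), robust dispersions, other scalings and filters, a replicate block, a stricter threshold and each library left out in turn.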

Additional observations from a re-analysis of the deposited data

How the results depend on the processing

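Of the 23 tested members, 18 kept their direction and their side of the threshold in every fit that gave a value. Mmp16 and Timp2 were not called without untreated replicate 2, Mmp23 was called lower without Rk1 replicate 2, and 2 genes changed sign while not called, Mmp2 (-0.45 to 0.14 with a library left out, the latter without untreated replicate 1) and Mmp14 (-0.020 to 0.11, the former without untreated replicate 2). Plaur, outside these families, did so too (-0.36 to 0.033, the latter without untreated replicate 1), as did Furin (-0.10 to 0.0031, the latter without Rk1 replicate 2) and Bmp1 (-0.047 to 0.051 with a library left out, -7e-04 with RLE scaling, -5e-04 with DESeq2 and -0.0039 with the stricter filter). The cause was not tested. The number of members lower was 11 in the fits with DESeq2, limma-voom, robust dispersions, other scalings and filters and the replicate block, 10 at an adjusted p under 0.01, and 10 to 12 with a library left out, and the number higher was 1, or 0 to 1 with a library left out.

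Over all genes, 1422 were higher and 1289 lower. DESeq2 gave 859 and 853, and an adjusted p under 0.01 gave 665 and 561. Leaving out a library gave 824 to 1110 higher and 859 to 936 lower. For ADAM and astacin genes the number higher was 1 at the stricter threshold and 1 to 2 with a library left out, and the number lower was 0 with DESeq2 and at the stricter threshold and 0 to 1 with a library left out. For other inhibitors and receptors the number higher was 1 at the stricter threshold and 1 to 2 with a library left out, and the number lower was 2 with robust dispersions, 0 at the stricter threshold and 0 to 1 with a library left out. For activators the number higher was 2 with the replicate block and 1 to 2 with a library left out, and the number lower was 0 with DESeq2, without a filter, at the stricter threshold and with any library left out. For the substrate list the number higher was 1 with the replicate block, and the number lower was 5 at the stricter threshold and 5 to 8 with a library left out.

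The replicate number, used as a block, gave 1676 genes higher and 1538 lower and changed the call of no member. Outside these families it called Plat (0.33, adjusted p = 0.022) and Vcan (0.11, adjusted p = 0.046) higher. The numbers carry no stated pairing, and the difference between replicates 1 and 2 correlated across genes at 0.0592 between the groups. Where a group was left with 1 library, its spread was taken from the other group. Adamtsl3 was not tested under the stricter filter and had no adjusted p by DESeq2. Low counts limit Mmp11, Mmp15, Mmp24, Adamts15 and Adamtsl3.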
